A study of Mus musculus with 4 samples.

Results

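The genes examined here encode the translation factors that start, extend and end protein synthesis on cytosolic ribosomes, and proteins named after them, such as inhibitors and modifying enzymes. All are called factors below. They were taken as the protein-coding genes whose GENCODE mouse symbol begins with Eif1 to Eif6, Eef1 or Eef2, or is Etf1, Gspt1, Abce1 or Pabpc1, without the eIF2 kinase genes and without genes on chromosome Y. The choice gave 66 genes of 21764 protein-coding genes, and of 50600 genes in all. Their mRNA was read in 4 RNA sequencing libraries of Th17 cells from mouse, the CD4 T helper cells that make interleukin 17. The cells were primary cells of the C57BL/6NJ strain, and the labels link a protocol for differentiating CD4 T cells. All 4 libraries form 1 group, numbered as biological replicates 1 to 4, and share 1 donor label. The labels give sex as not collected and age as unknown, and the marks 72hr and Sorted stand in the headers of the files. Separate animals or cultures are not named for them, so every p-value below measures the spread between these samples alone. Part of that spread may be technical, and the libraries also differ in sex-linked genes, as given below.

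Translation begins when eIF2 brings the initiator tRNA to the small ribosomal subunit, which eIF3, eIF1 and eIF1A hold ready, while eIF4E, eIF4G and eIF4A prepare the capped end of the mRNA. Elongation then runs on eEF1A, which delivers aminoacyl-tRNA, and eEF2, which moves the ribosome along by a codon, until eRF1 and eRF3 release the finished chain. Activated T cells enlarge and divide quickly, and the supply and phosphorylation of several of these factors, among them the eIF4E-binding proteins and eIF2, are known points where T-cell signalling acts on protein output. mRNA levels, which are all that was measured, do not show phosphorylation or protein.

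Library totals ran from 9382661 counts in replicate 3 to 34542693 in replicate 1, a 3.68-fold range. Markers were those of the labelled cell type: Il17a and Il17f stood at 7787 and 11651 TPM and Cd4 at 564 TPM in the mean, while the B-cell gene Ms4a1, the natural killer genes Ncr1 and Klrb1c and the myeloid gene S100a8 had 0 counts in every library. Cd8b1 had 13.4 TPM and Cd8a 4 counts over the 4 libraries. TPM is the count per base of exon, scaled to the same total in each library, and was computed here from the deposited counts and gene lengths. In bulk RNA, fewer cells with a transcript and less of it per cell cannot be told apart. Replicates 1 and 2 had 177 and 193 TPM of Xist, the RNA that coats an inactive X chromosome, and replicates 3 and 4 had 2.15 and 0.598 TPM, although all 4 share 1 donor label. The libraries therefore stand apart in sex-linked genes, and the member this touches most, Eif2s3x, is described below with each library's values.

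Promoter sequences were matched for 48 of the 66 genes in RefSeq (GRCm38.p6), from 250 bases before to 50 bases after each start. The letters CACGTG, the E-box that Myc and Max as well as Usf proteins are known to bind, stood in 12 of the 48 (25%), against 9.18% of all 16469 genes with a promoter, 12.2% of the expressed ones (a mean of at least 1 TPM) and 13.8% of those with at least 100 TPM. The 12 were Eef2, Eef2k, Eif1b, Eif3a, Eif3f, Eif3k, Eif4a1, Eif4e, Eif4g1, Eif4h, Eif5a and Eif5a2, so they include the elongation factor eEF2, the cap-binding protein eIF4E, its scaffold eIF4G1 and its helicase eIF4A1. CACGTG reads the same on both strands. Windows of 8 of them, among them the most abundant and those of the cap complex, are shown 5′ to 3′ on the strand of the gene, with the E-box in capitals.
Eef2: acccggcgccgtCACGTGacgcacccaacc
Eif5a: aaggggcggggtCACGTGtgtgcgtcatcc
Eif4a1: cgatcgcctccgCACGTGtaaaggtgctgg
Eif4g1: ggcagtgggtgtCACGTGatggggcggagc
Eif4e: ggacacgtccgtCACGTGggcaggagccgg
Eif4h: cggccgccgcacCACGTGggccgcagagcg
Eif3f: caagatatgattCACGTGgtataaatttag
Eif3k: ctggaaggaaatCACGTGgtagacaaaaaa
They lie at chr10:81176576-81176605 (plus strand) for Eef2, chr11:69921443-69921472 (minus) for Eif5a, chr11:69672595-69672624 (minus) for Eif4a1 and chr16:20672661-20672690 (plus) for Eif4g1. The other windows are chr3:138527192-138527221 (plus) for Eif4e, chr5:134639488-134639517 (minus) for Eif4h, chr7:108934335-108934364 (plus) for Eif3f and chr7:28981915-28981944 (minus) for Eif3k. Counted from the annotated start, the first E-box base was at position -43 in Eef2, -54 in Eif4g1, -64 in Eif4e and -44 in Eif3k. It was at -68 in Eif3f, -96 in Eif4h and -189 in Eif4a1, and in Eif5a at -74 or -185, depending on the start. Further E-boxes stood at -228 in Eif4e, 16 in Eif4g1 and -178 in Eif5a. A match describes the letters and is not a binding site.

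A second motif, CCGGAAG on either strand, the core that Ets family proteins such as Gabpa are known to bind, stood in 17 of the 48 (35.4%), against 13.4% of all genes with a promoter, 22.4% of the expressed ones and 26.9% of those with at least 100 TPM. Among its carriers were 5 eIF3 subunit genes (Eif3c, Eif3d, Eif3g, Eif3l and Eif3m), 2 of the eIF2B genes (Eif2b2 and Eif2b4) and Gspt1. Eif1b, Eif5a and Eif5a2 held both motifs, whose letters cannot overlap. These windows show the Ets-type core in capitals, as CCGGAAG or its reverse complement CTTCCGG, for the eIF3 subunits and for Eef1b2, the exchange factor of eEF1A.
Eef1b2: cctgcagttccgCCGGAAGtagccgaggcc
Eif3c: caaccttttcctCTTCCGGcgtcgtgcctg
Eif3d: agctgtgacacaCTTCCGGttgtgtctcac
Eif3g: gcggccgcggcaCCGGAAGcctcttctact
Eif3l: ggctgggcgggaCTTCCGGtccggccaagc
Eif3m: tctgtggctgacCCGGAAGcggttgtgcgt
They lie at chr1:63176820-63176849 (plus) for Eef1b2, chr7:126566383-126566412 (minus) for Eif3c, chr15:77970877-77970906 (minus) for Eif3d, chr9:20898617-20898646 (minus) for Eif3g, chr15:79075176-79075205 (plus) for Eif3l and chr2:105017065-105017094 (minus) for Eif3m. TATAAA was in 4 of the 48 promoters (8.33%), those of Eef2, Eif2s1, Eif3b and Eif3f, against 14.3% of all genes and 8.04% of the expressed ones.

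Many translation factor mRNAs are known to begin with a C and a run of pyrimidines, the 5′ terminal oligopyrimidine (TOP) motif, through which mTOR and Larp1 act on their translation. At the annotated starts, a C followed by at least 4 pyrimidines was found in 2 of the 48 genes (4.17%), Eif2s3x and Eif3f, against 2.72% of all genes with a promoter and 3.92% of those with at least 100 TPM. Both runs were 11 bases long and are shown in capitals, each with 15 bases before the start.
Eif3f: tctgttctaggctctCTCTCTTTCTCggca
Eif2s3x: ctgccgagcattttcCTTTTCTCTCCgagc
These windows are chr7:108934400-108934429 (plus) and chrX:94212637-94212666 (minus). When the start was allowed to move by up to 5 bases, 8 of the 48 had such a run (16.7%), Eef1a1, Eif3l and Eif4g1 among them. The share was 16.1% of all genes, 18.2% of the expressed ones and 18.6% of those with at least 100 TPM. The annotated Eef2 start carried none. The test of a start by its letters depends on where the annotation puts the first base, and no start was measured here.

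The factors were among the abundant mRNAs of these cells. Their median was 182.7, 184.1, 193.3 and 172.1 TPM in replicates 1 to 4 (183.04 ± 8.69, SD, n = 4), while the median of all protein-coding genes was 0.774, 0.814, 0.715 and 0.915 TPM. All 4 medians of the factors lay far above those of the protein-coding genes, of which more than 1 in 2 fell below 1 TPM. Of the 66 factors, 62 (93.9%) had at least 1 TPM in every library, against 10367 of the 21764 protein-coding genes (47.6%). A mean of at least 100 TPM was reached by 45 factors (68.2%), against 9.41% of protein-coding genes and 19.1% of those with a mean of at least 1 TPM. Among the factors, 18 reached 500 TPM and 6 reached 1000 TPM. Together they took 3.49, 3.52, 3.65 and 3.38% of all counts in replicates 1 to 4, with a summed level of 35512 ± 1098 TPM (SD, n = 4). The elongation factors eEF1A1 and eEF2 alone made up 39.6 to 41.3% of that sum.

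**Figure D1:**
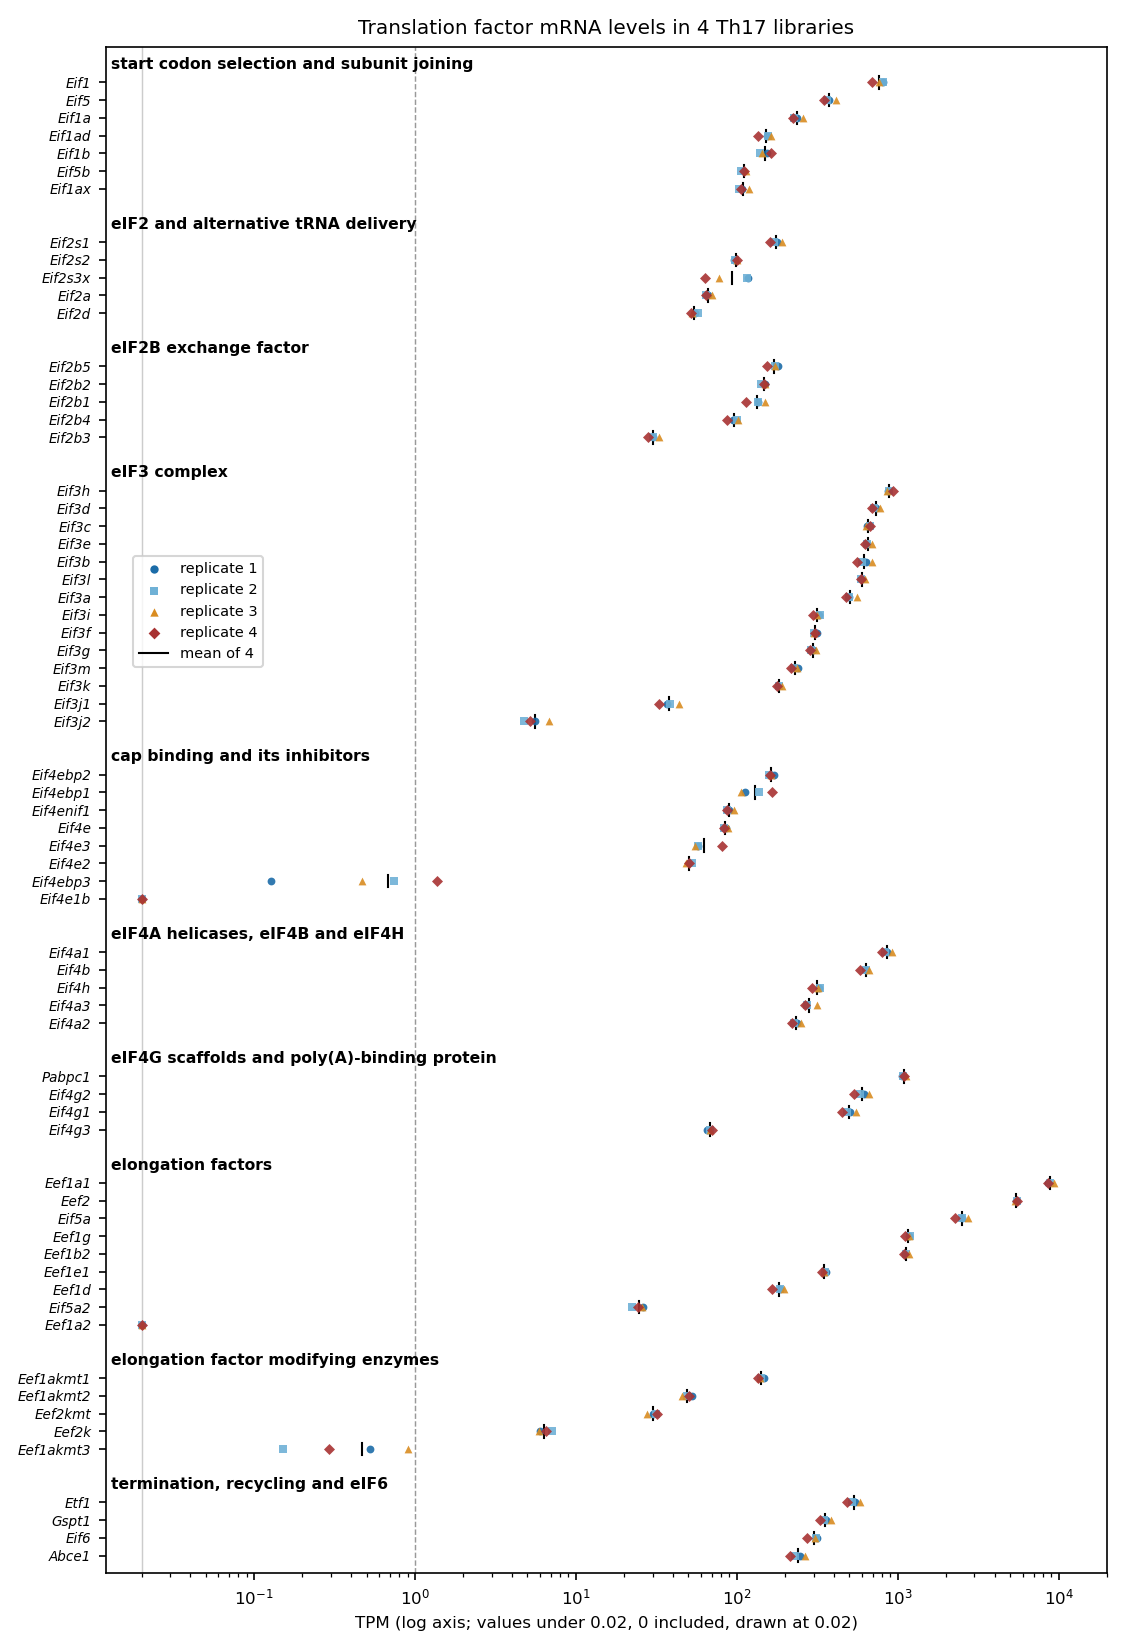
TPM of each of the 66 translation factor genes in 4 Th17 libraries, on a log axis, grouped by role (coloured marks, 1 per library; black bar, mean of 4; values under 0.02, 0 included, drawn at 0.02). Eef1a1, at 8869 TPM in the mean, lies farthest right, and Eef1a2 and Eif4e1b, with 0 counts, lie at the left edge.

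All 7 genes grouped under start codon selection and subunit joining, Eif1ad included, had a mean of at least 100 TPM on the deposited exonic lengths. With the longest protein-coding transcript as length, Eif1ax had 81.1 TPM and the other 6 stayed at or above 100 TPM. The length of Eif1ax itself changed little, from 5266 to 5172 bases. Its level fell because new lengths for all genes change the total to which TPM is scaled. Eif1, whose product keeps the scanning ribosome open until it meets a start codon, had 806, 814, 767 and 691 TPM in replicates 1 to 4, and its paralogue Eif1b had 154, 140, 144 and 163 TPM. Eif1 was higher in each library, by 2.35 ± 0.19 on the log2(TPM + 1) scale (SD, n = 4). Eif1ax and Eif1a both encode eIF1A, which binds the A site of the small subunit. Eif1ax, on the X chromosome, had 108, 104, 120 and 106 TPM, and Eif1a had 238, 228, 257 and 225 TPM, a difference of -1.11 ± 0.02 in log2(TPM + 1). The autosomal copy was thus the higher in every library, by nearly the same factor. Eif5, which makes eIF2 hydrolyse its GTP at the start codon, averaged 374 ± 26.6 TPM, and Eif5b, which joins the large subunit, averaged 110 ± 3.20 TPM (SD, n = 4 each). Eif1ad, an eIF1A-domain protein gene, averaged 152 ± 11.3 TPM.

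Among the genes of eIF2, the factor that carries the initiator tRNA, the gene of the alpha subunit, Eif2s1, whose product is phosphorylated in the integrated stress response, averaged 175 ± 12.8 TPM, and the beta-subunit gene Eif2s2 averaged 98.8 ± 2.07 TPM (SD, n = 4 each). With the length of the longest protein-coding transcript in place of the merged exons, that order turned, with Eif2s2 at 191 TPM and Eif2s1 at 184.5 TPM. The gamma subunit, which holds GTP and the tRNA, has an X-linked gene, Eif2s3x (ENSMUSG00000035150.15, mm10 chromosome X, positions 94188707 to 94212862), and in mouse also a Y-linked copy, Eif2s3y. Eif2s3x had 118, 116, 77.0 and 63.2 TPM in replicates 1 to 4. It had the widest spread of the factors tested, and its levels in replicates 1 and 2 were above those in replicates 3 and 4. Eif2s3y, which the choice of genes leaves out, had 0.0458, 0.133, 72.3 and 68.9 TPM. Added together, the gamma-subunit mRNAs came to 117.7, 116.6, 149.3 and 132.1 TPM. The sum varied less than Eif2s3x alone, and its order over the libraries was different. Eif2s3x and Eif2s3y share 0 stretches of 50 bases in the GENCODE transcripts, though 34.6% of the 50-base stretches of Eif2s3x also occur in the genes Gm2223 and Eif2s3x-ps1. Eif2a and Eif2d, which can place initiator tRNA without eIF2, averaged 66.3 ± 2.57 and 54.3 ± 2.68 TPM.

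eIF2B recharges eIF2 with GTP and is made of 5 different subunits. Eif2b5, the catalytic epsilon subunit, averaged 170 ± 11.6 TPM, Eif2b2 147 ± 3.79 TPM, Eif2b1 134 ± 15.2 TPM and Eif2b4 96.0 ± 6.59 TPM, while Eif2b3, the gamma subunit, averaged 30.3 ± 1.87 TPM (SD, n = 4 each). Eif2b3 was the lowest in every library, with 30.1, 30.0, 32.8 and 28.2 TPM. The highest and the lowest subunit mRNA differed 5.63 ± 0.31-fold within a library. With the length of the longest protein-coding transcript in place of the merged exons, the ratio was 4.08 ± 0.23, and Eif2b5 and Eif2b3 were again the ends. Subunit mRNAs of this complex were therefore not equal in level on either length.

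The genes of eIF3, the scaffold that binds mRNA, eIF4G and the small subunit, formed the biggest group, with 14 members. Of the 12 genes other than Eif3j1 and Eif3j2, 10 lay within 2-fold of their median of 556 TPM. Eif3h averaged 887 ± 31.0 TPM, Eif3d, whose product can bind caps, 729 ± 35.9 TPM, Eif3c 656 ± 18.3 TPM, Eif3e 651 ± 27.0 TPM, Eif3b 621 ± 56.1 TPM, Eif3l 604 ± 16.5 TPM and Eif3a 509 ± 32.3 TPM (SD, n = 4 each). A lower set was made of Eif3i at 317, Eif3f at 306, Eif3g at 296, Eif3m at 230 and Eif3k at 183 TPM in the mean. The ends, Eif3h and Eif3k, differed 4.86 ± 0.31-fold within a library. This order depended on the gene length: with the longest protein-coding transcript, Eif3i had 760 TPM and was the highest, Eif3k had 394 TPM, Eif3f was the lowest at 256 TPM, and the ratio between the ends was 2.97 ± 0.15. Eif3j1 and Eif3j2, genes for the loosely bound eIF3j, averaged 38.0 ± 4.41 and 5.58 ± 0.87 TPM. They share 2115 stretches of 50 bases, 91.9% of those of Eif3j2, and reads that mapped to several places were not counted, so both levels are uncertain.

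Of the 8 genes of cap binding and its inhibitors, 2 had a mean of at least 100 TPM on the deposited lengths, and with the longest protein-coding transcript Eif4enif1 did too, at 112 TPM. Eif4e, the cap-binding protein that many growth signals act on, averaged 85.0 ± 2.34 TPM. Its relatives Eif4e2, known for roles in repression and in low oxygen, and Eif4e3 averaged 50.7 ± 1.73 and 62.6 ± 11.9 TPM (SD, n = 4 each), and Eif4e1b had 0 counts in all libraries. Finding 0 counts allows for at most 3 per library, and Eif4e stood at least 188-fold above that limit for Eif4e1b in each library. Eif4e exceeded Eif4e2 by 0.74 ± 0.08 in log2(TPM + 1), in all 4 libraries, but with the longest protein-coding transcript as length the difference was -0.095. Eif4e3 had 57.3, 57.3, 55.4 and 80.4 TPM in replicates 1 to 4 (ENSMUSG00000093661.1, mm10 chromosome 6, positions 99625135 to 99666771). Replicate 4 stood above the other 3, which lay close together. Of its exon bases, 14.8% are also covered by the gene Gm20696 on the same strand, and reads there were not counted for either gene.

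The eIF4E-binding proteins, which block eIF4E until mTOR phosphorylates them, were measured at 131 ± 27.4 TPM for Eif4ebp1 and 163 ± 4.69 TPM for Eif4ebp2 (SD, n = 4 each), while Eif4ebp3 held 15 counts over the 4 libraries. Of the exon bases of Eif4ebp3, 67.3% are also covered by the gene Ankhd1 on the same strand. Reads there were not counted for either gene, so the level of Eif4ebp3 is uncertain. Eif4ebp1 (ENSMUSG00000031490.6, mm10 chromosome 8, positions 27260329 to 27276674) had 112, 137, 106 and 166 TPM in replicates 1 to 4. Eif4ebp2 had 169, 159, 163 and 160 TPM. Replicate 4 was the only library in which Eif4ebp1 was the higher, and the mean difference, Eif4ebp1 minus Eif4ebp2, was -0.34 ± 0.32 in log2(TPM + 1) (exact sign-flip p = 0.25, both tails). Set against eIF4E itself, Eif4e minus Eif4ebp1 was -0.59 ± 0.33, negative in 4 of 4 libraries. Per library the ratio of Eif4e to Eif4ebp1 in TPM was 0.767, 0.608, 0.826 and 0.498. With CPM, which scales counts by depth and not by length, the same difference was 0.85 in the other direction, as Eif4e has 6008 exon bases and Eif4ebp1 2196. Eif4enif1, the gene of the eIF4E transporter, averaged 90.1 ± 4.33 TPM.

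eIF4A unwinds the 5′ end of the mRNA, and Eif4a1 was the more abundant of its paralogous mRNAs. Eif4a1 had 863, 833, 925 and 794 TPM in replicates 1 to 4, and its paralogue Eif4a2 had 236, 227, 249 and 220 TPM. The ratio of Eif4a1 to Eif4a2 was 3.66, 3.67, 3.71 and 3.60, so the libraries differed little. The log2(TPM + 1) difference was 1.87 ± 0.02 (SD, n = 4), and 2.18 with the longest protein-coding transcript as length. Of the 50-base stretches of Eif4a1 28.4% occur in transcripts of other genes, and of those of Eif4a2 10.6%, and 9.63% of the exon bases of Eif4a2 are overlapped by genes such as Snora81 and Snord2. Eif4a3, which marks exon junctions rather than opening caps, averaged 280 ± 22.6 TPM. The helicase partners Eif4b and Eif4h averaged 631 ± 35.4 and 316 ± 16.8 TPM.

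Eif4g2, whose product lacks the eIF4E site and serves cap-independent initiation, averaged 601 ± 54.3 TPM, Eif4g1, the main scaffold, 499 ± 43.1 TPM, and Eif4g3 68.0 ± 2.14 TPM (SD, n = 4 each). Eif4g2 exceeded Eif4g1 in each library by 0.27 ± 0.02 in log2(TPM + 1), with ratios of 1.23, 1.20, 1.20 and 1.19. Eif4g1 exceeded Eif4g3 by 2.85 ± 0.15. Pabpc1, the poly(A)-binding protein that joins the tail to eIF4G, had 1070, 1080, 1133 and 1088 TPM, above all eIF4G genes in each library.

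On the deposited exonic lengths, the 5 factors with the highest mean levels all act in elongation. With the longest protein-coding transcript as length, Eef1a1, Eef2 and Eif5a were still the highest, but Pabpc1 at 1627 TPM and Eif4a1 at 1517 TPM came next, ahead of Eef1g and Eef1b2. Eef1a1 (ENSMUSG00000037742.14, mm10 chromosome 9, positions 78478449 to 78489151), the gene of eEF1A1, had 8569, 8905, 9359 and 8641 TPM in replicates 1 to 4. It ranked 4 among all protein-coding genes by mean level. Eef2 (ENSMUSG00000034994.10, mm10 chromosome 10, positions 81176631 to 81182498) had 5415, 5536, 5387 and 5511 TPM and ranked 12. Eef1a1 was higher than Eef2 in every library, by 0.70 ± 0.07 in log2(TPM + 1). Eef1a2, the form of muscle and nerve, had 0 counts in every library, and Eef1a1 stood at least 18532-fold above its limit of 3 counts per library in the shallowest one. Because 39.4% of the 50-base stretches of Eef1a1 also occur in transcripts of other genes, and reads with several places to map were not counted, its level is uncertain.

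Among the eEF1B subunit genes, which recharge eEF1A with GTP, Eef1g averaged 1165 ± 39.9 TPM and Eef1b2 1132 ± 35.9 TPM (SD, n = 4 each), while Eef1d had 185, 186, 196 and 167 TPM in replicates 1 to 4. The highest and lowest differed 6.38 ± 0.26-fold within a library, and 4.28 ± 0.18-fold with the longest protein-coding transcript as length. Eef1g shares 44.2% of its 50-base stretches with other transcripts. Eef1e1, an auxiliary protein of the tRNA synthetase complex, averaged 350 ± 8.23 TPM on its 1032 counted exon bases. Its longest transcript in GENCODE release 21 has 2553 bases and would give 103 TPM. Reads outside the 1032 bases of release 13 were not counted, so 103 TPM is not a second measure of its level. Eif5a, which relieves ribosomes stalled at prolines and is the protein that carries hypusine, had 2524, 2524, 2724 and 2277 TPM, and its paralogue Eif5a2 had 26.1, 22.3, 25.9 and 24.2 TPM. The ratio of Eif5a to Eif5a2 was 102 ± 8.62 (6.62 ± 0.12 on the log2 scale of TPM + 1). With the longest protein-coding transcript as length, the log2 difference was 7.32. The enzymes that make hypusine, Dhps and Dohh, averaged 79.8 ± 8.80 and 80.7 ± 3.21 TPM.

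Of the 5 enzymes that modify elongation factors, 1 had a mean of at least 100 TPM, Eef1akmt1. It had 97.8 TPM with the longest protein-coding transcript as length. Its own length went from 836 to 880 bases, and the rest of the change came from the rescaled total. Eef2k, the kinase that stops eEF2, averaged 6.38 ± 0.58 TPM, with 6.00, 7.14, 5.87 and 6.51 TPM in replicates 1 to 4. Eef2 stood at 5387 to 5536 TPM in the same libraries. The lysine methyltransferase genes Eef1akmt1, Eef1akmt2 and Eef2kmt averaged 141 ± 5.01, 49.3 ± 2.93 and 30.4 ± 1.90 TPM, and Eef1akmt3 held 32 counts over the 4 libraries. In the release step, Gspt1, the gene of the GTPase eRF3a, had 359, 349, 386 and 328 TPM, and Etf1, the gene of its partner eRF1 that reads stop codons, had 545, 518, 580 and 486 TPM. Gspt1 minus Etf1 was -0.58 ± 0.02 in log2(TPM + 1), in all 4 libraries. Abce1, which splits the ribosome for reuse, averaged 239 ± 21.8 TPM, and Eif6, which keeps free large subunits apart, averaged 302 ± 18.1 TPM.

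**Figure D2:**
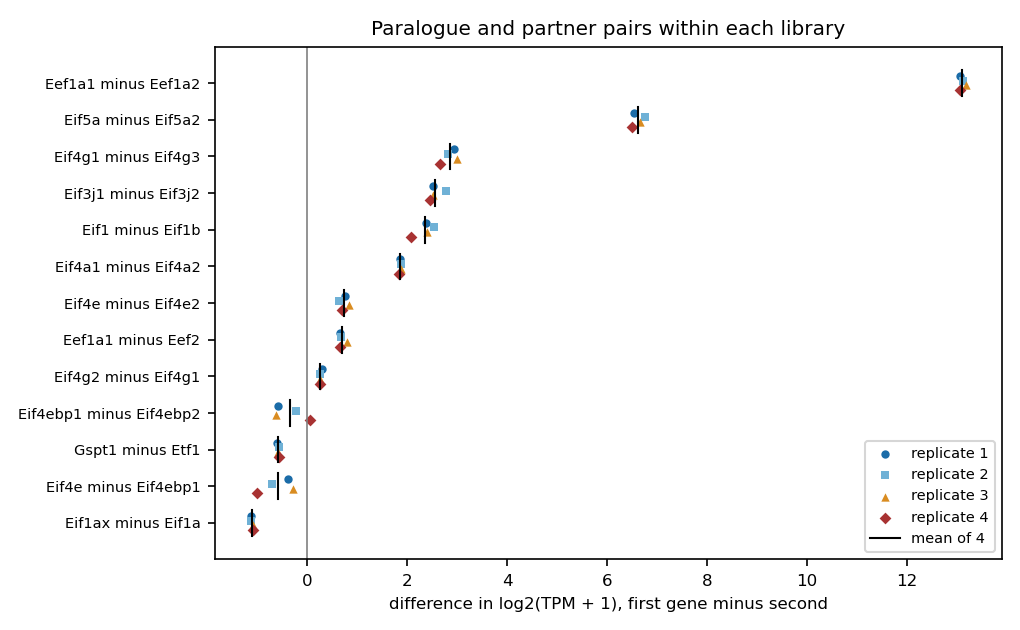
Difference in log2(TPM + 1) between the first and the second gene of 13 pairs in each of 4 Th17 libraries (coloured marks; black bar, mean of 4; vertical line, no difference). Eif4ebp1 minus Eif4ebp2 is the pair whose marks lie on both sides of 0, and Eif5a minus Eif5a2 averages 6.62.

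Over the 13 pairs, 12 had the same sign in all 4 libraries. With 4 libraries the smallest p an exact sign-flip test (both tails) can give is 0.13, and those 12 pairs gave it (adjusted 0.135 by Benjamini-Hochberg over 13 pairs), so no pair could pass a threshold of 0.05. The pairs were between genes of the same library, and paralogue lengths and shared sequence enter them as given above. The SD of a pair covers the libraries and not the choice of length. With the longest protein-coding transcript, Eif1 minus Eif1b was 2.89, Eef1a1 minus Eef2 1.07 and Gspt1 minus Etf1 -0.37.

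Most of the factors varied little between libraries. Their spread was tested in edgeR by comparing each gene's quasi-dispersion with the trend over abundance. The test covered 12156 genes that passed a filter on low counts, of which 62 were factors (Eif4ebp3, Eef1akmt3, Eef1a2 and Eif4e1b did not pass). The filter asked for its count level in every library, so genes seen in only some of the libraries were not tested. Of the 62, 0 passed an adjusted p of 0.05 in edgeR's test, in which 0.00823% of all genes tested (Xist alone) passed. At an unadjusted p under 0.05 there were 3 of 62 (4.84%), against 4.9% of all genes tested, a share at the background. DESeq2 marked 1 of the 64 factors with a count, Eif2s3x, as a dispersion outlier, and 111 of all 21299 genes (0.521%). The coefficient of variation (CV) over the libraries, on CPM scaled by TMM, edgeR's normalisation of library sizes, had a median of 6.19% for the factors and 7.91% for all genes tested. For the 4811 genes between 48.4 and 1084 CPM, the 10th to 90th percentile of the factors, the median was 5.27%, below that of the factors. A CV under 10% was seen for 56 of the 62 factors (90.3%) and for 61.4% of all genes tested, a share that is not matched for level. Eef2 had the lowest CV of the factors, 1.17%.

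The 3 factors at an unadjusted p under 0.05 were Eif2s3x, Eif4ebp1 and Eif4e3, with a CV of 29.5, 20.4 and 18.4%. Their adjusted p in edgeR's test was 0.4245, 0.8056 and 0.8955. For Eif2s3x, leaving out replicate 4 gave an adjusted p of 0.0602, and leaving out replicates 1, 2 or 3 gave 0.567, 0.731 and 0.432. Without any filter on low counts the test called 126 of 21299 genes (0.592%) and Eif2s3x among them at an adjusted p of 0.000996. The call for this gene therefore depended on the filter, and replicates 1 and 2, its higher libraries, were also the ones with Xist above 100 TPM. What part the sex-linked difference between the libraries has in it was not tested. Eif1ax, the other X-linked factor, had a CV of 7.22%.

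**Figure D3:**
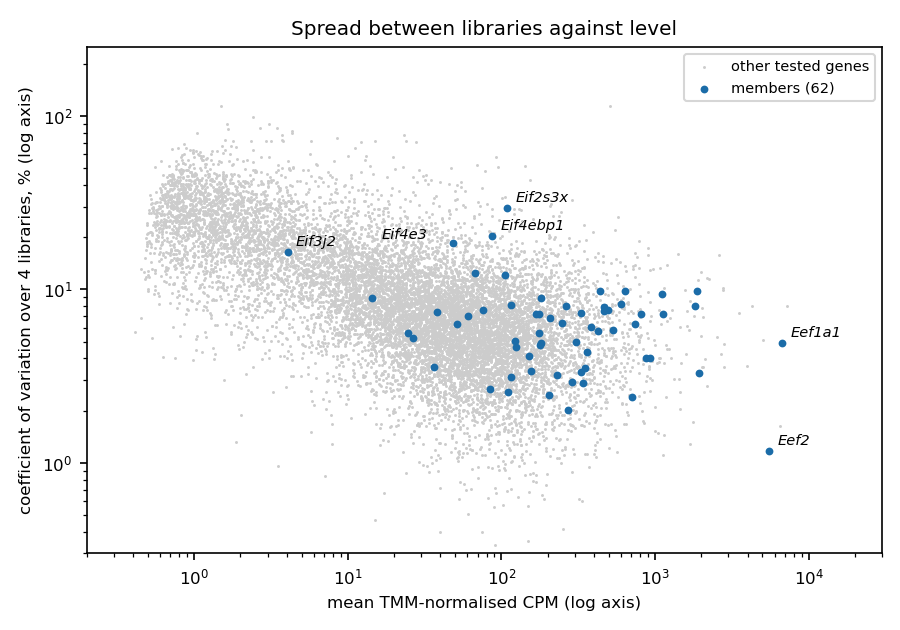
Coefficient of variation over 4 libraries (%) against mean TMM-normalised CPM, both on log axes, for 62 translation factors (blue) and the other genes tested (grey). Eef2, at 1.17%, is the lowest blue point, and Eif2s3x, at 29.5%, the highest.

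Within that small spread many factors shared an order of the libraries. On TMM-normalised CPM, replicate 3 was the highest library for 39 of the 62 factors (62.9%), against 33.9% of all genes tested and 45.1% of genes in the same CPM range. Replicate 4 was the lowest for 41 (66.1%), against 32.9% and 46.2%. Both held for 31 factors (50%), against 20.6% of all genes and 32.2% of genes in the range, and the reverse order held for 4 (6.45%), against 20.5% and 16.7%. Set against the mean of the 3 others, the median factor was shifted by 0.11 on the log2 scale in replicate 3 and by -0.11 in replicate 4. The same medians over genes in the range were 0.04 and -0.04. Factors share these libraries and are not independent, and no test was made of these counts. Replicate 3 was the library with the fewest counts, and whether depth, the cells or their handling has a part was not tested.

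The share of genes with this order differed between roles, each with few genes. Replicate 3 was the highest and replicate 4 the lowest in 9 of the 14 eIF3 genes, 4 of the 5 genes of eIF4A and its partners, 3 of the 4 genes of termination, recycling and eIF6 and 3 of the 5 eIF2B genes, beside 32.2% of genes in the range. The same order was seen in 2 of the 4 genes of eIF4G and Pabpc1 and 2 of the 5 genes of eIF2 and alternative tRNA delivery. It was also seen in 3 of the 7 genes grouped under start codon selection, Eif1ad included. It also held in 3 of the 8 tested genes grouped as elongation factors, Eef1e1 included. It was seen in 0 of the 4 tested enzymes that modify elongation factors and in 2 of the 6 tested genes of cap binding, where the reverse order held for 2. Eif4ebp1 and Eif4e3 were those 2, and both were highest in replicate 4.

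**Figure D4:**
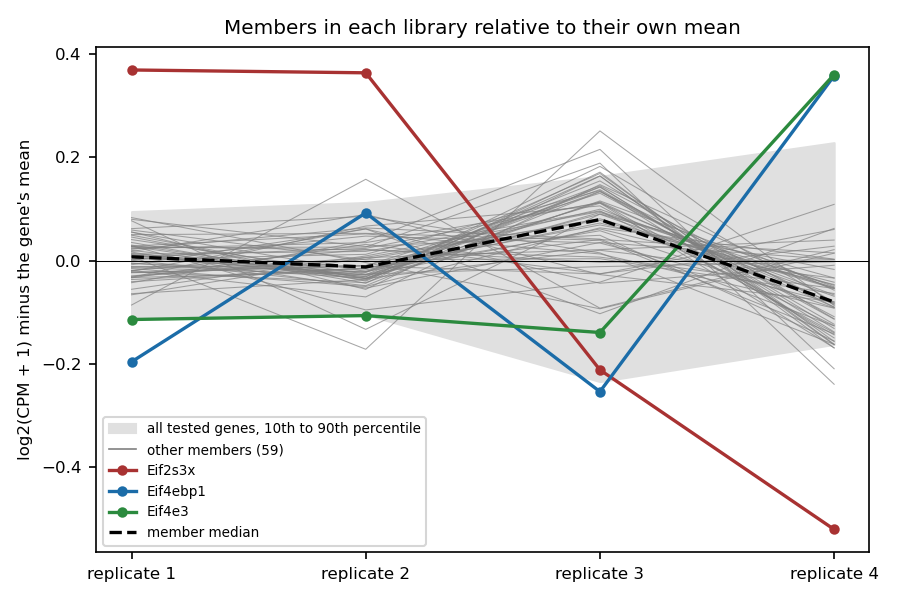
log2(CPM + 1) of each tested factor minus its own mean, in 4 Th17 libraries (lines join the values of 1 gene and carry no order; dashed, median of the factors; grey band, 10th to 90th percentile of all genes tested). The median lies at 0.08 in replicate 3 and -0.08 in replicate 4, and Eif4ebp1 and Eif4e3 stand above it in replicate 4.

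Regulators, relatives and partners of the factors, and 9 mitochondrial translation factors, were read from lists of 41 genes. Of these, 40 reached 1 TPM in each library. The median level was 183 TPM over the factors and 52.2 TPM over these genes, the mitochondrial ones included. Of the 41, 0 passed the spread test and 3 (7.32%) had an unadjusted p under 0.05 (Eif2ak2, Pdcd4 and Ddx3x), against 4.9% of all genes tested. The eIF2 kinases that phosphorylate Eif2s1's product stood at 45.1 ± 1.65 TPM for Eif2ak1, 28.6 ± 6.47 for Eif2ak2, 28.4 ± 2.07 for Eif2ak3 and 20.2 ± 0.45 for Eif2ak4 (SD, n = 4 each). The phosphatase regulators that reverse them, Ppp1r15b and Ppp1r15a, averaged 127 ± 5.69 and 31.6 ± 5.74 TPM. Of the kinases that phosphorylate eIF4E, Mknk2 averaged 366 ± 14.5 TPM and Mknk1 22.9 ± 1.85 TPM. Larp1, the repressor of TOP mRNAs, averaged 288 ± 10.7 TPM.

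Ddx3x, an X-linked helicase of scanning, had 579, 539, 664 and 461 TPM in replicates 1 to 4, highest in replicate 3 and lowest in replicate 4, an order other than that of Eif2s3x. Pdcd4, which inhibits eIF4A, had 48.1, 48.5, 40.6 and 62.5 TPM, highest in replicate 4. The 9 translation factors of mitochondria, which serve a separate ribosome, had a median of 17.8 TPM, with Tufm, the mitochondrial counterpart of eEF1A, at 152 ± 3.75 TPM. Gspt2, the retrogene copy of Gspt1, stood at 3.87 ± 0.92 TPM. Sbds and Efl1, which remove eIF6 from the large subunit, averaged 154 ± 3.48 and 34.8 ± 0.52 TPM.

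By position, 7 of the 66 factors (10.6%) lie on chromosome 15, which holds 3.53% of protein-coding genes: Eef1d, Eif3d, Eif3e, Eif3h, Eif3l, Eif4b and Pabpc1. Their mean levels ran from 183 TPM for Eef1d to 1093 TPM for Pabpc1. They include 4 of the 12 main eIF3 subunit genes. Chromosome 15 did not stand alone. Chromosome 16 held 5 factors (7.58%, against 3% of protein-coding genes) and chromosome 18 held 4 (6.06%, against 2.32%). No test was made of these shares.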

How the data were processed

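The authors deposited counts in whole numbers of read pairs, 1 file per library, and no normalised values. Per the file headers, featureCounts 1.4.6-p4 counted pairs whose mates both mapped, over the exons of each gene in GENCODE release 13, with the reverse-stranded setting (2). The headers show no option for reads that map to several places or overlap several genes, so these were left out. The input names there point to STAR (no version given in the sources used here). The labels give mm10. Total RNA sequencing is the assay's name in the labels, but their library protocol is named for poly(A) RNA.

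Symbols and gene types came from GENCODE release 21 (50376 of 50600 identifiers matched). The lengths of the longest protein-coding transcripts also came from release 21, while the counts and deposited lengths follow release 13. TPM were computed from counts and deposited exonic lengths, without a fragment length correction. The spread test used edgeR 4.0.16 in R 4.3.3 (intercept alone, TMM, filterByExpr, Benjamini-Hochberg over all genes tested). It was also run on simulated data, but the share of changed genes it recovers is not given here. A gene that did not pass is therefore not shown to be constant. DESeq2 1.42.0 gave dispersion outliers. Pairs were tested by exact sign-flip over 4 libraries on log2(TPM + 1). Other sequence in a gene was found from 50-base stretches of the GENCODE transcripts. Promoters came from RefSeq (GRCm38.p6). Any factor could be named, and other genes come from lists. The members and lists were chosen with earlier results of these data known. Alternatives changed the length, scaling, pseudocount, filter, tool or libraries. Limits of 3 counts cover counting error only, and no molecular identifiers are named in the labels. No per-sample column was left unused (0).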

Additional observations from a re-analysis of the deposited data

Results flagged for a closer look

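Of 79 values examined for a library far from the others (64 factors with a count, 13 pairs and 2 summaries), 3 were found, and chance gives about 1 in 20. The measure is the gap of the extreme library to its nearest neighbour as a share of the range and was set against Dixon's critical value for 4 libraries. Eif4e3 had a gap of 0.923, with 80.4 TPM in replicate 4 and 55.4 to 57.3 TPM in the other 3. Eif4a3 had a gap of 0.879, with 314 TPM in replicate 3 and 266 to 272 TPM in the other 3. Eif2b2 had a gap of 0.871, with 141 TPM in replicate 2 and 148 to 149 TPM in the other 3, a small difference in level.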

How the results depend on the processing

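The count of 62 factors with at least 1 TPM in every library held under all alternatives run. The summed level was 36973 TPM when scaled over protein-coding genes alone. With 200 bases taken from each length, the median factor was 87.6 TPM and the sum 17052 TPM, because 6583 genes of at most 200 bases then held 50.3% of the total. As FPKM with TMM library sizes, the median was 55.9 and the sum 10844. Eif4e minus Eif4ebp1 turned to 0.85 with CPM, and Eif4e minus Eif4e2 to -0.095 with the longest protein-coding transcript, an alternative added after the data were seen. The other 12 of 13 pairs kept their sign in each of those settings, and all 13 did with a pseudocount of 0.1 or 1 library left out. Leaving out 1 library moved the median between 179.6 and 186.7 TPM and the sum between 35042 and 35931 TPM. The spread test called 1 factor without a filter, and DESeq2 called 1 (Eif2s3x in both), against 0 in edgeR with the filter, with DESeq2 size factors, with a mean count of at least 50 or with 1 library left out. Over all genes, edgeR called 126 of 21299 without a filter, 5 with a mean count of at least 50 and 20 without replicate 4, against 1, and DESeq2 marked 111 of 21299 (0.521%). Depth limits Eef1akmt3 (32 counts) and, together with the exon overlap with Ankhd1, Eif4ebp3 (15 counts). The shallow replicate 3 sets the limits for Eef1a2 and Eif4e1b. No paired analysis was possible because there is 1 group only.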
